A study of Mus musculus with 4 samples.

Results

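The transcripts of 47 genes that encode cytosolic and mitochondrial chaperones, and the factors that work with them, were measured in primary mouse neural stem and progenitor cells (NSCs) with and without the chromatin remodeler Chd5. The genes were chosen by name from 9 classes, by a rule that uses no measured value, although earlier results of these data were known when they were chosen. They comprise 2 heat shock transcription factors, 10 members of the HSP70 and HSP110 families, 3 of the HSP90 family, 3 small heat shock proteins, 2 subunits of the mitochondrial chaperonin, 9 cochaperones, 5 HSP40 proteins, 8 subunits of the TRiC chaperonin and 5 prefoldin subunits. All 47 were found among the 18169 rows of the expression table, in 48 rows, because Hspa14 is listed in more than 1 row.

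Each culture was grown from the periventricular zone of the brain of 1 newborn C57BL/6 mouse, in medium with epidermal growth factor and fibroblast growth factor 2. There were 2 samples of wild-type NSCs (+/+) and 2 of NSCs lacking Chd5 (Chd5-/-), and the labels number them 1 and 2 in each genotype. How the Chd5 allele was made is not given in the sources used here. According to the growth protocol all brains were taken on postnatal day 1, whereas the age entries read day 1 for +/+ replicate 1, day 2 for +/+ replicate 2, day 3 for Chd5-/- replicate 1 and day 4 for Chd5-/- replicate 2, so by these entries age and genotype cannot be told apart. Values are in TPM, a unit of transcript abundance that is scaled by transcript length and adds to the same total in every sample. Chd5 itself was measured at 0.39 and 0.37 TPM in +/+ NSCs, compared with 0.06 and 0.04 TPM in Chd5-/- NSCs.

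Chaperones bind proteins that are not folded and help them to reach or regain their shape. HSP70 takes up short stretches of new or damaged chains, HSP40 proteins deliver these clients and speed up its use of ATP, and HSP90 with its cochaperones finishes the folding of kinases and receptors. Prefoldin hands new actin and tubulin chains to TRiC, a closed double ring, while HSP60 and HSP10 (Hspd1 and Hspe1) form the folding chamber of the mitochondrial matrix. When unfolded proteins accumulate, heat shock factor 1 binds repeats of the letters GAA in alternating orientation, the heat shock element, and turns on the inducible members. Small heat shock proteins hold unfolded chains without using ATP.

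Promoter windows from RefSeq (GRCm38.p6, 250 bases before to 50 after a gene's start) were found for 38 of the 47 genes and searched on both strands for such repeats. No window was found for Hsf1, Hspa8, Hspa9, Hspa13, Hsp90aa1, Hsp90ab1, Cryab, Cct4 and Pfdn1, so these genes were not searched. A pair of facing units, GAANNTTC or TTCNNGAA, was present for 15 of these 38 genes (39.5%) and for 17.0% of 27025 genes with a window. A run of 3 units, GAANNTTCNNGAA or TTCNNGAANNTTC, was present for 4 of the 38 (10.5%), namely Dnajb6, Hspd1, Hspe1 and Hsph1, and for 0.662% of all genes. The shorter motif lies within the longer one, so the 2 counts are not separate. Hspd1 and Hspe1, which share the same element, were counted as separate genes. So were Hspa1a and Hspa1b, whose stretches are identical. The sequences that follow are those of some of the genes whose levels are described in detail here, with the matched units in capitals. Matches of others, among them Cdc37, Stub1, Cct5, Dnaja1 and Hsph1, are not shown. Hspd1 and Hspe1 lie head to head and read the same element from opposite strands, at chr1:55088053-55088082, on the minus strand for Hspd1 and on the plus strand for Hspe1.
Hspd1: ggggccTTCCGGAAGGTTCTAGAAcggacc
Hspe1: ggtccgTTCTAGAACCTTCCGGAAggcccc
The stretches of the inducible HSP70 genes Hspa1a (chr17:34972233-34972280, minus strand) and Hspa1b (chr17:34959315-34959362, minus strand) were identical, 124 to 77 bases before each start.
Hspa1a: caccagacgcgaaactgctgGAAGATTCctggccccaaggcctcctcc
Hspa1b: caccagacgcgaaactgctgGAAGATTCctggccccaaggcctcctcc
Hspb1 held 2 pairs of units within 68 bases, at chr5:135887782-135887849 on the plus strand.
Hspb1: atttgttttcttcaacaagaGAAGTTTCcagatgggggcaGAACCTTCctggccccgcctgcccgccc
A match describes the letters in these windows and does not show that a factor was bound.

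The samples were not equally alike. The rank correlation of all rows was 0.974 between the +/+ samples and 0.904 between the Chd5-/- samples. The 12 NSC markers, among them Nes, Sox2, Vim and Fabp7, were detected in every sample, with summed levels of 9965 and 8308 TPM in the +/+ samples and of 4067 and 7004 TPM in Chd5-/- replicates 1 and 2. Most of each sum came from Fabp7, Slc1a3 and Vim. The markers did not all run the same way, with a positive log2 fold change for 4 and a negative one for 8. Chd5-/- replicate 1 also had the lowest sum of the 7 astrocyte markers, at 204 TPM against a range of 698 to 999 TPM in the other samples. Aldoc and Slc1a2 led the astrocyte sum in those other samples. Aqp4 and Aldh1l1 in Chd5-/- replicate 1 lay between the +/+ samples. The 10 endothelial and mesenchymal markers, of which 8 are listed, summed to 22.3 TPM in Chd5-/- replicate 1, where Acta2 and Col3a1 led, and to between 0.47 and 0.80 TPM elsewhere. The 7 microglia markers, of which 3 are listed, summed to at most 0.75 TPM. The 10 neuronal markers summed to between 523 and 927 TPM, most of it from Map2. Without Map2 their sum was 57.0 and 32.8 TPM in +/+ NSCs, compared with 158 and 142 TPM in Chd5-/- NSCs. Gap43 alone was at 47.7 and 28.0 TPM in +/+ NSCs, compared with 148 and 121 TPM in Chd5-/- NSCs. It made up most of this sum in every sample, so the sum does not describe the neuronal markers as a group. The neuronal marker Rbfox3 was listed at 0 in 3 samples. In such bulk samples, fewer cells of a type and less RNA per cell cannot be told apart, and the part of these differences in the results that follow was not tested.

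**Figure D1:**
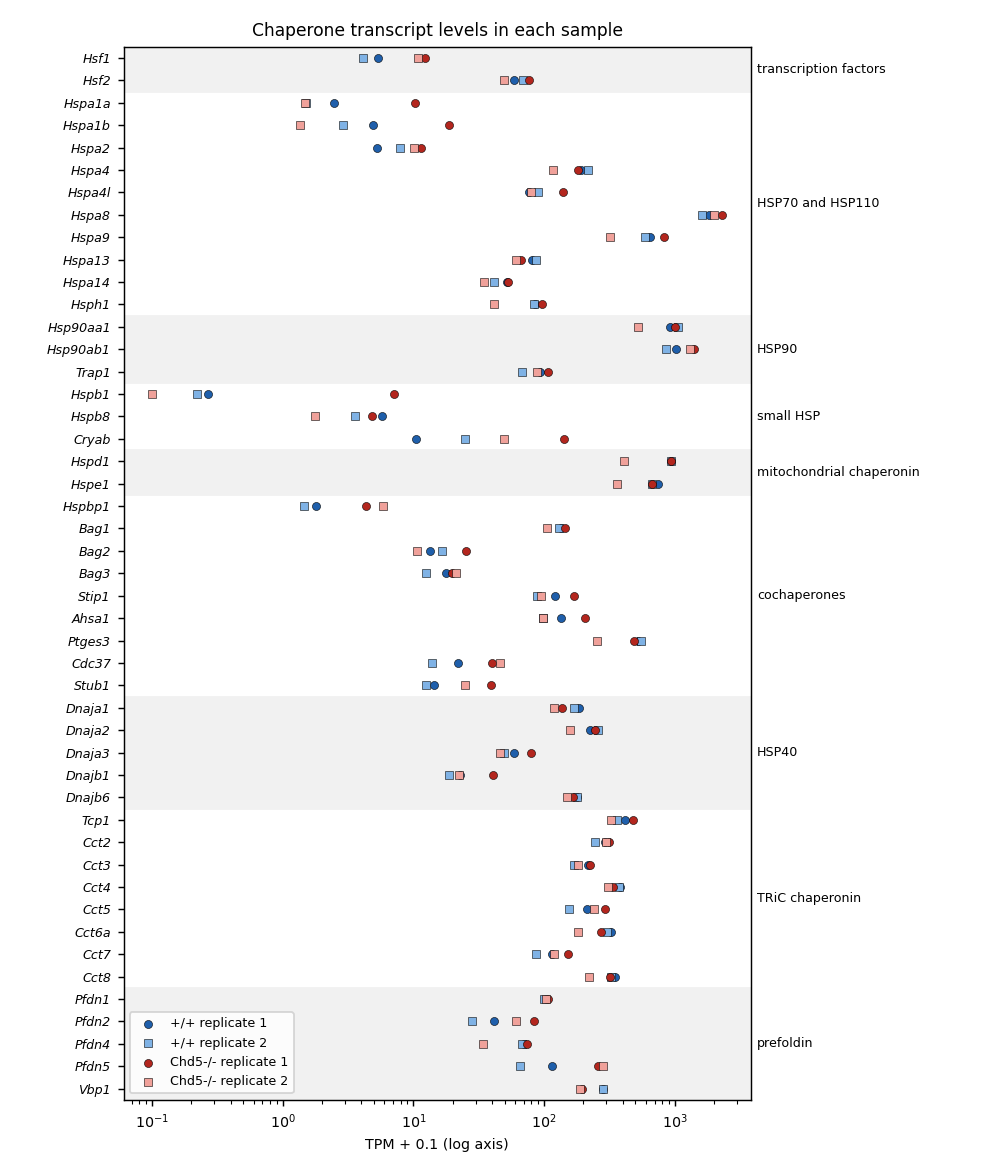
TPM plus 0.1 on a log axis for each of the 47 chaperone genes (rows, grouped by class) in the 4 samples, circles for replicate 1 and squares for replicate 2 of each genotype. Hspa8 leads in all samples, and Hspa1a, Hspa1b, Hspb1 and Cryab show the widest spread, with Chd5-/- replicate 1 highest.

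Chaperone transcripts were abundant. Their summed level was 11343 and 10595 TPM in the +/+ samples and 13009 and 9170 TPM in Chd5-/- replicates 1 and 2, or 1.13%, 1.06%, 1.30% and 0.917% of all TPM. The sums of the +/+ samples lay between those of the Chd5-/- samples, so the genotypes overlapped. All 47 genes had a mean of at least 1 TPM and were tested with limma on log2(TPM + 1), together with the other rows that passed this minimum, 12576 in all. None of the 47 had an adjusted p-value under 0.05, against 7 of all rows (0.0557%). At an unadjusted p-value under 0.05 with limma, 7 chaperone genes were higher in Chd5-/- NSCs (14.9%, against 21.9% of all rows), namely Hsf1, Cryab, Hspbp1, Cdc37, Stub1, Pfdn2 and Pfdn5. Vbp1 alone was lower (2.13%, against 2.27% of all rows). Both Chd5-/- samples were above both +/+ samples for 15 genes (31.9%, against 46.3% of all rows), below them for 10 (21.3%, against 13.0%), and overlapped with them for 22.

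Across the 47 genes the median log2 fold change was 0.14, and across all rows it was 0.34, so the whole table was shifted towards higher values in Chd5-/- NSCs. Median-of-ratios scaling, which sets the typical ratio between samples to 1, brought the median of all rows to 0.0052 and that of the chaperone genes to -0.21. After this scaling 6 chaperone genes were higher (12.8%, against 12% of all rows) and 8 were lower (17.0%, against 10.4%) at an unadjusted p-value under 0.05. The genes with a positive value then numbered 16, against 27 as deposited. The sign of a chaperone gene's difference thus often depended on the processing. It was the same under every alternative tried for 20 genes, 10 positive and 10 negative, and turned under at least 1 alternative for 27.

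**Figure D2:**
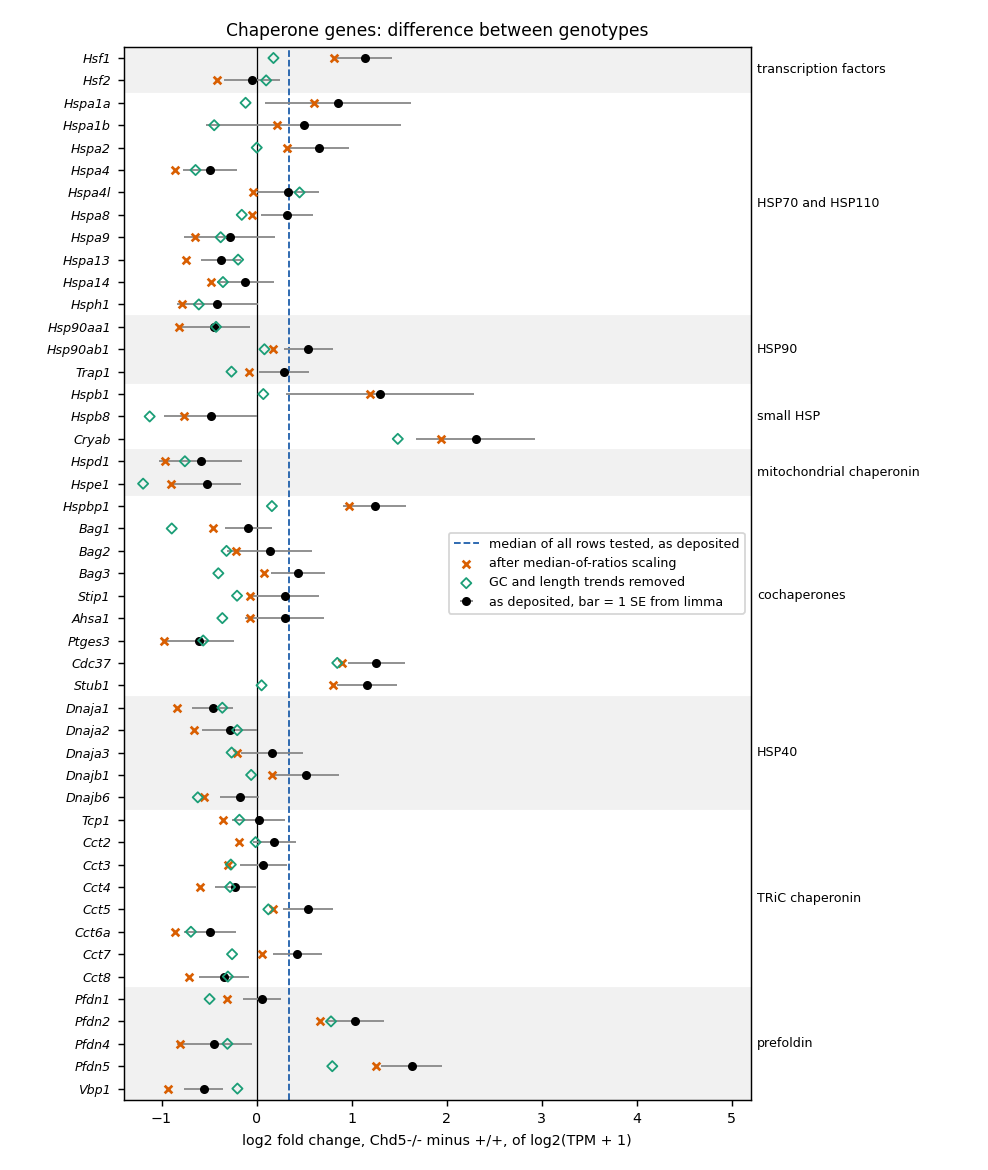
Log2 fold change of log2(TPM + 1), Chd5-/- minus +/+, for the 47 chaperone genes, with bars of 1 standard error from limma (n = 2 per genotype). Crosses show the difference once scaled by median-of-ratios, diamonds show it without trends in GC content and length, and the dashed line marks the median of all rows, 0.34. Cryab, Pfdn5, Cdc37 and Pfdn2 stay above 0.6 in all versions, while Hsf1, Hspbp1 and Stub1 are at 0.18, 0.16 and 0.05 with these trends removed.

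Of the transcription factors, Hsf1 (chr15:76477422-76501913, plus strand), the main activator of the heat shock response, was measured at 5.29 and 4.05 TPM in +/+ NSCs, compared with 12.11 and 10.77 TPM in Chd5-/- NSCs. The genotypes did not overlap, and the log2 fold change was 1.14 with a standard error of 0.29 (adjusted p = 0.129). After median-of-ratios scaling it was 0.81, and without the trends with GC content and length it was 0.18. Hsf2, a related factor known from development, was measured at 58.73 and 68.74 TPM in +/+ NSCs, compared with 77.15 and 49.03 TPM in Chd5-/- NSCs. Its genotypes overlapped, and its log2 fold change of -0.05 became 0.10 with the GC and length trends removed. Hsf2 transcripts were more abundant per length than those of Hsf1 in each of the 4 samples.

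Within the HSP70 and HSP110 families, none of the 10 genes differed at an unadjusted p-value under 0.05, and 5 had a positive and 5 a negative log2 fold change. Hspa8, the constitutive cytosolic HSP70, was the most abundant chaperone transcript, at 1828.41 and 1618.25 TPM in +/+ NSCs, compared with 2311.17 and 2000.37 TPM in Chd5-/- NSCs. Both Chd5-/- samples were above both +/+ samples, but the log2 fold change of 0.32 (standard error 0.27) lay at the median of all rows and was -0.05 after median-of-ratios scaling. Hspa4 encodes an HSP110-type exchange factor that releases ADP from HSP70, and had the most negative log2 fold change of the family. It was measured at 191.67 and 217.77 TPM against 180.68 and 116.34 TPM. Its log2 fold change was -0.49 (standard error 0.29) as deposited and -0.86 after median-of-ratios scaling.

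The inducible genes Hspa1a (chr17:34969190-34972156, minus strand) and Hspa1b (chr17:34956436-34959238, minus strand) were low in 3 of the 4 samples. Hspa1a was measured at 2.35 and 1.40 TPM in the +/+ samples, at 10.15 TPM in Chd5-/- replicate 1 and at 1.37 TPM in Chd5-/- replicate 2. Hspa1b was measured at 4.83 and 2.81 TPM in the +/+ samples, at 18.59 TPM in Chd5-/- replicate 1 and at 1.25 TPM in Chd5-/- replicate 2. For each gene Chd5-/- replicate 1 was the highest and Chd5-/- replicate 2 the lowest of the 4 samples. The log2 fold changes of 0.86 and 0.49 had standard errors of 0.77 and 1.03, and turned to -0.26 and -1.07 without Chd5-/- replicate 1. The transcripts share 1873 stretches of 31 bases, 63.8% of those in Hspa1a and 67.6% of those in Hspa1b, so the split of reads between them is uncertain. Their sum, 7.18 and 4.21 TPM in +/+ NSCs, compared with 28.74 and 2.62 TPM in Chd5-/- NSCs, followed the same order.

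Several other HSP70-type genes were also lower in Chd5-/- replicate 2 than in all other samples. Hspa9, which encodes mitochondrial HSP70 (mortalin), was measured at 649.02 and 595.17 TPM in +/+ NSCs, compared with 822.78 and 318.15 TPM in Chd5-/- NSCs. Per transcript of Hspa8 there were 0.355 and 0.368 of Hspa9 in the +/+ samples, 0.356 in Chd5-/- replicate 1 and 0.159 in Chd5-/- replicate 2, which stood apart. Hsph1, which encodes HSP105, an exchange factor that also binds unfolded chains, was measured at 85.74 and 83.09 TPM against 96.92 and 41.02 TPM. Hspa13, a member with an ER signal sequence, had 79.98 and 85.95 TPM in the +/+ samples and lower values of 66.39 and 60.84 TPM in both Chd5-/- samples (log2 fold change -0.38, standard error 0.21, adjusted p = 0.327). Log2 fold changes of the others were 0.66 for Hspa2, 0.33 for Hspa4l and -0.12 for Hspa14, whose second row had between 1.29 and 2.09 TPM.

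The HSP90 genes parted. Hsp90ab1, the constitutive cytosolic form, was measured at 1027.31 and 852.23 TPM in +/+ NSCs, compared with 1414.22 and 1316.48 TPM in Chd5-/- NSCs. Hsp90aa1, the more inducible cytosolic form, was measured at 922.96 and 1061.67 TPM against 1011.13 and 520.71 TPM. Hsp90ab1 did not overlap between genotypes and Hsp90aa1 did, with log2 fold changes of 0.54 (standard error 0.26, adjusted p = 0.264) and -0.45 (standard error 0.38, adjusted p = 0.500). The ratio of Hsp90aa1 to Hsp90ab1, which no scaling of a whole sample can alter, was 0.898 and 1.25 in +/+ NSCs, compared with 0.715 and 0.396 in Chd5-/- NSCs. With trends in GC content and length removed, the log2 fold changes were -0.43 for Hsp90aa1 and 0.08 for Hsp90ab1. Trap1, the mitochondrial HSP90, overlapped between genotypes, with a log2 fold change of 0.29.

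Among the small heat shock proteins, Cryab (chr9:50751325-50756636, plus strand), which encodes αB-crystallin, had the largest difference of all 47 genes. It was measured at 10.44 and 24.83 TPM in +/+ NSCs, compared with 141.94 and 49.51 TPM in Chd5-/- NSCs. All 4 values were far apart, but both Chd5-/- samples were above both +/+ samples. The log2 fold change was 2.31 (standard error 0.63, adjusted p = 0.134), 1.94 after median-of-ratios scaling and 1.49 once the GC and length trends were removed. Hspb1, which encodes HSP27 and carries the promoter pairs shown above, was measured at 0.17 and 0.12 TPM in +/+ NSCs and at 6.95 TPM in Chd5-/- replicate 1, and was listed at 0 in Chd5-/- replicate 2. Hspb8, a partner of Bag3 in chaperone-assisted autophagy, had 5.68 and 3.47 TPM against 4.72 and 1.67 TPM, with overlapping genotypes and a log2 fold change of -0.48 (standard error 0.49).

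The mitochondrial chaperonin genes Hspd1 (chr1:55077835-55088243, minus strand) and Hspe1 (chr1:55088132-55091307, plus strand) overlap at their 5′ ends on opposite strands, and the strand setting used in counting is not given in the sources used here. Hspd1 was measured at 932.65 and 935.46 TPM in +/+ NSCs, compared with 941.24 and 409.70 TPM in Chd5-/- NSCs. Hspe1 was measured at 743.22 and 674.47 TPM against 672.00 and 359.02 TPM. In both cases 3 samples lay close together and Chd5-/- replicate 2 lay below them. The log2 fold changes were -0.59 (standard error 0.44, adjusted p = 0.442) and -0.53 (standard error 0.36, adjusted p = 0.407), and without Chd5-/- replicate 2 they were 0.01 and -0.08. The ratio of Hspd1 to Hspe1 ranged only from 1.14 to 1.40 across the 4 samples.

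The 9 cochaperone genes included 3 that were higher at an unadjusted p-value under 0.05 (33.3%, against 21.9% of all rows). Cdc37 (chr9:21133222-21149982, minus strand), which brings kinases to HSP90, was measured at 21.86 and 13.71 TPM in +/+ NSCs, compared with 39.88 and 46.16 TPM in Chd5-/- NSCs. Stub1 (chr17:25830505-25833404, minus strand), which encodes CHIP, a ubiquitin ligase for chaperone clients, was measured at 14.31 and 12.49 TPM against 39.46 and 24.61 TPM. Hspbp1 (chr7:4660521-4685068, minus strand), an exchange factor of HSP70, was measured at 1.69 and 1.35 TPM against 4.21 and 5.78 TPM. In each case the genotypes did not overlap. The log2 fold changes were 1.26 for Cdc37 (standard error 0.30, adjusted p = 0.126), 1.16 for Stub1 (standard error 0.31, adjusted p = 0.134) and 1.24 for Hspbp1 (standard error 0.33, adjusted p = 0.134). With the GC and length trends removed that of Cdc37 was 0.85, whereas those of Stub1 and Hspbp1 were 0.05 and 0.16.

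Ptges3, which encodes p23, the cochaperone that holds HSP90 in its closed form, was the most abundant of this class, at 526.86 and 547.50 TPM in +/+ NSCs, compared with 488.90 and 255.50 TPM in Chd5-/- NSCs. Both Chd5-/- samples were below both +/+ samples. The difference of -0.60 on the log2 scale (limma, standard error 0.36, adjusted p = 0.355) was the most negative of the 47 genes. Without Chd5-/- replicate 2 it was -0.14. The other 5 genes of the class had small differences between genotypes, from -0.09 for Bag1 to 0.44 for Bag3. Of these, Bag2 and Ahsa1, an inhibitor of CHIP and an activator of the HSP90 ATPase, were more than 2-fold apart between the Chd5-/- samples, with 25.07 and 10.48 TPM for Bag2 and 206.86 and 97.62 TPM for Ahsa1. Stip1, which links HSP70 to HSP90, had 120.83 and 87.60 TPM against 169.77 and 95.26 TPM, with overlap.

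None of the 5 HSP40 genes differed at an unadjusted p-value under 0.05. Dnaja2, a cytosolic partner of HSP70, was the most abundant, at 225.08 and 256.39 TPM in +/+ NSCs, compared with 244.69 and 158.91 TPM in Chd5-/- NSCs, with overlap. Dnajb1, the stress-inducible HSP40, was measured at 22.79 and 18.63 TPM against 40.26 and 22.32 TPM, and its log2 fold change of 0.52 (standard error 0.35) became -0.06 with the GC and length trends removed. Dnaja1, a farnesylated HSP40, was measured at 183.37 and 170.67 TPM against 137.85 and 119.26 TPM. Its genotypes did not overlap, and it differed by -0.46 on the log2 scale (standard error 0.21, adjusted p = 0.259) as deposited and -0.83 after median-of-ratios scaling. Per transcript of Hspa8 there were 0.100 and 0.105 of Dnaja1 in the +/+ samples and 0.0596 in each Chd5-/- sample. With the GC and length trends removed, the log2 fold changes of Dnaja1 and Hspa8 were closer to each other, at -0.36 and -0.16. Dnajb6, which keeps aggregation-prone chains soluble, was also lower in both Chd5-/- samples, with a log2 fold change of -0.18, and Dnaja3, the mitochondrial HSP40, overlapped between genotypes at 0.16.

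**Figure D3:**
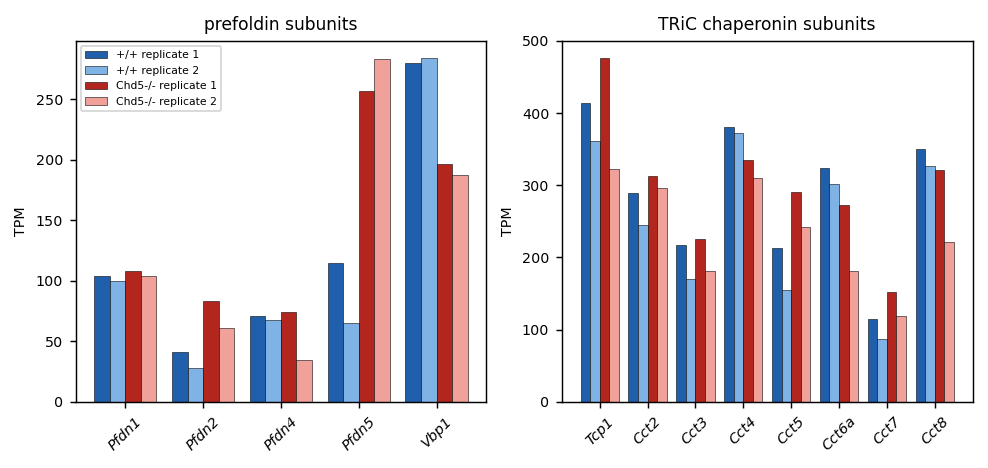
TPM of the 5 prefoldin genes (left) and the 8 TRiC genes (right) in each of the 4 samples, with both axes starting at 0. Pfdn5 exceeds Vbp1 only in the Chd5-/- samples, and the TRiC subunits lie between 87.14 and 476.78 TPM.

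TRiC contains each of its subunits in equal number. The 8 genes measured here spanned 3.63-fold and 4.27-fold from the lowest to the highest in the +/+ samples and 3.12-fold and 2.72-fold in the Chd5-/- samples, with Cct7 the lowest in every sample. No subunit differed at an unadjusted p-value under 0.05. Tcp1, the alpha subunit and the most abundant by its mean, was measured at 413.53 and 361.54 TPM in +/+ NSCs, compared with 476.78 and 322.84 TPM in Chd5-/- NSCs. Cct5 lay at one end, with 213.71 and 154.79 TPM against 290.53 and 242.40 TPM (log2 fold change 0.54, standard error 0.26, adjusted p = 0.272). Cct6a lay at the other, with 324.35 and 301.41 TPM against 272.39 and 181.79 TPM (log2 fold change -0.49, standard error 0.28, adjusted p = 0.333). Cct2, Cct5 and Cct7 were above the +/+ range in both Chd5-/- samples, whereas Cct4, Cct6a and Cct8 were below it. All 8 subunits were higher in replicate 1 than in replicate 2 of each genotype, by a median of 0.22 in log2(TPM + 1) for +/+ and 0.34 for Chd5-/-. Of all rows, 65.9% ran this way in +/+ and 49.8% in Chd5-/-.

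Prefoldin is built from 6 kinds of subunit, and 5 of their genes were included here. Their log2 fold changes ran from -0.55 to 1.63, and those of the TRiC genes from -0.49 to 0.54. Pfdn5 (chr15:102326116-102331873, plus strand), also known as MM-1 for its binding to Myc, was measured at 114.49 and 65.22 TPM in +/+ NSCs, compared with 256.55 and 283.37 TPM in Chd5-/- NSCs. The log2 fold change was 1.63 (standard error 0.32, adjusted p = 0.120), 1.26 after median-of-ratios scaling and 0.80 once the GC and length trends were removed. Pfdn2 (chr1:171345670-171359254, plus strand) was measured at 41.37 and 28.08 TPM against 82.95 and 60.50 TPM, a difference of 1.03 on the log2 scale (standard error 0.30, adjusted p = 0.147). Vbp1 (chrX:75514299-75534942, plus strand), the subunit that binds the von Hippel-Lindau protein, was measured at 279.79 and 284.26 TPM against 196.10 and 187.28 TPM. Its samples agreed closely within each genotype, and the log2 fold change was -0.55 (standard error 0.21, adjusted p = 0.191), -0.93 after median-of-ratios scaling and -0.20 once the GC and length trends were removed.

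The order of the prefoldin subunits by level was not the same in the genotypes. Vbp1 was the highest subunit in both +/+ samples and Pfdn5 in both Chd5-/- samples. The ratio of Pfdn5 to Vbp1 was 0.409 and 0.229 in +/+ NSCs, compared with 1.31 and 1.51 in Chd5-/- NSCs. The ratio of Pfdn2 to Vbp1 was 0.148 and 0.0988 in +/+ NSCs, compared with 0.423 and 0.323 in Chd5-/- NSCs. These genes were closer with the GC and length trends removed, at log2 fold changes of 0.80 for Pfdn5, 0.78 for Pfdn2 and -0.20 for Vbp1. Pfdn1 had nearly equal values throughout, from 100.14 to 107.77 TPM, and Pfdn4 overlapped, with 70.44 and 67.37 TPM against 74.30 and 34.08 TPM. Pfdn6, the remaining subunit gene, was on the list of other cytosolic and nuclear chaperone genes, with 22.61 and 18.72 TPM in +/+ NSCs, compared with 36.06 and 31.19 TPM in Chd5-/- NSCs. The log2 fold change of Pfdn6 was 0.68 as deposited and -0.15 with the GC and length trends removed.

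The widest differences among the chaperone genes lay within the Chd5-/- genotype. Chd5-/- replicate 1 was above replicate 2 for 43 of the 47 genes (91.5%, against 49.8% of all rows), by a median of 0.58 in log2(TPM + 1). The exceptions were Hspbp1, Bag3, Cdc37 and Pfdn5. By at least 1 on this scale, 11 genes were higher in Chd5-/- replicate 1 (23.4%, against 8.87% of all rows) and 0 were higher in replicate 2 (against 8.00% of all rows). The 11 were Hspa1a, Hspa1b, Hspa9, Hsph1, Hspb1, Hspb8, Cryab, Hspd1, Bag2, Ahsa1 and Pfdn4. In the +/+ genotype replicate 1 was above replicate 2 for 34 of the 47 genes (72.3%, against 65.9% of all rows), by a median of 0.14, and 1 gene, Cryab, differed by at least 1. These are differences between 2 libraries, each with no replicate of its own.

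The genes did not all depart from the +/+ samples in the same library. For Hspa1a, Hspa1b, Hspb1 and Cryab, Chd5-/- replicate 1 was well above the +/+ samples, whereas for Hspa9, Hsph1, Hspd1, Hspe1, Hsp90aa1, Ptges3 and Pfdn4 it was replicate 2 that was well below them. With Chd5-/- replicate 1 left out, Hsph1, Hspd1, Ptges3, Pfdn4 and Pfdn5 had an adjusted p-value under 0.05 (10.6%, against 9.92% of all rows). With Chd5-/- replicate 2 left out, Hspa1a, Hspa1b, Hspb1, Cryab and Stub1 did (10.6%, against 8.64% of all rows). Both shares are close to those of the whole table. No gene was in both groups of 5, and in each such fit the single Chd5-/- sample is assumed to vary as the +/+ samples do. Genes with a pair of heat shock units in their window had a median difference of 0.66 between the Chd5-/- samples (n = 15), and those without had 0.60 (n = 23). Hmox1 and Atf3, stress genes outside the chaperone classes, were at 130.37 and 8.37 TPM in Chd5-/- replicate 1 and at most at 29.64 and 1.54 TPM elsewhere. They come from a list of stress and immediate early genes of which 6 of 10 tested were above in Chd5-/- replicate 1, while others, such as Fos and Ier2, were higher in replicate 2, and the part of a stress response in these values was not tested.

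**Figure D4:**
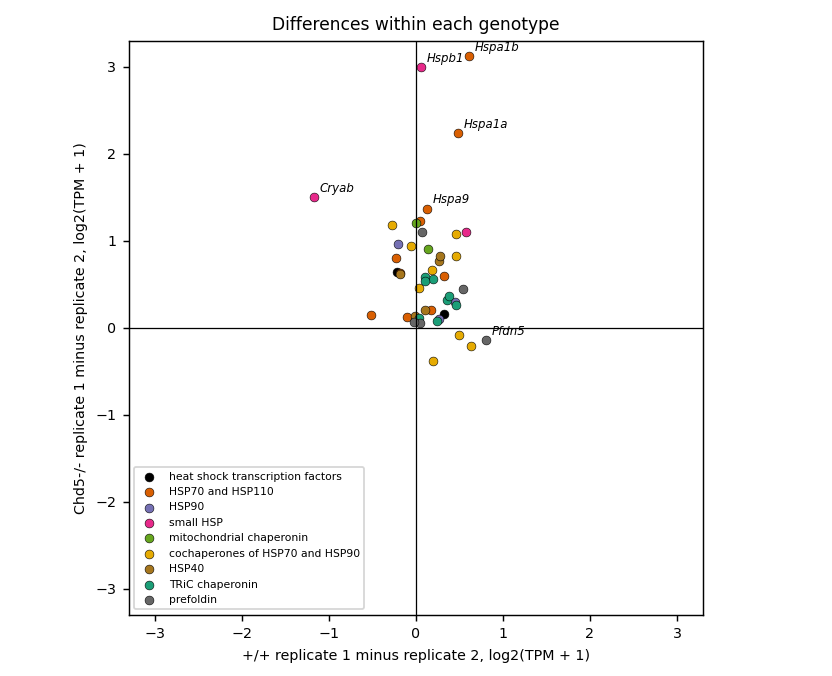
Difference between replicate 1 and replicate 2 in log2(TPM + 1) within the +/+ genotype (horizontal) and within the Chd5-/- genotype (vertical) for the 47 chaperone genes, coloured by class. 43 points lie above the horizontal line at 0, and Hspa1b, Hspb1 and Hspa1a lie highest.

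The differences between genotypes followed the base composition of the transcripts. Over the 11700 rows with a known GC content, the Spearman correlation of GC content with log2 fold change was 0.617, and over the 47 chaperone genes it was 0.685. It is given as a description, since the genes share the same 4 libraries. The 15 chaperone genes of lowest GC content (35.5% to 47.2%) had a median of -0.38 for this difference, with 2 positive values. The middle 17 genes had a median of 0.14, and the 15 of highest GC content (52.7% to 61.7%) had a median of 0.66, with 13 positive values. Vbp1, the 1 gene that was lower at an unadjusted p-value under 0.05, had the lowest GC content of all 47, and Hsf1, Hspbp1 and Stub1 were at 57.8%, 59.9% and 60.8%. With the trends removed, the 3 medians were -0.30, -0.26 and -0.06, and Cdc37, Pfdn2 and Pfdn5 were the genes still higher at an unadjusted p-value under 0.05 (6.38%, against 4.60% of all rows). Cryab then had an unadjusted p-value of 0.0820. The cause of the GC trend was not tested.

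**Figure D5:**
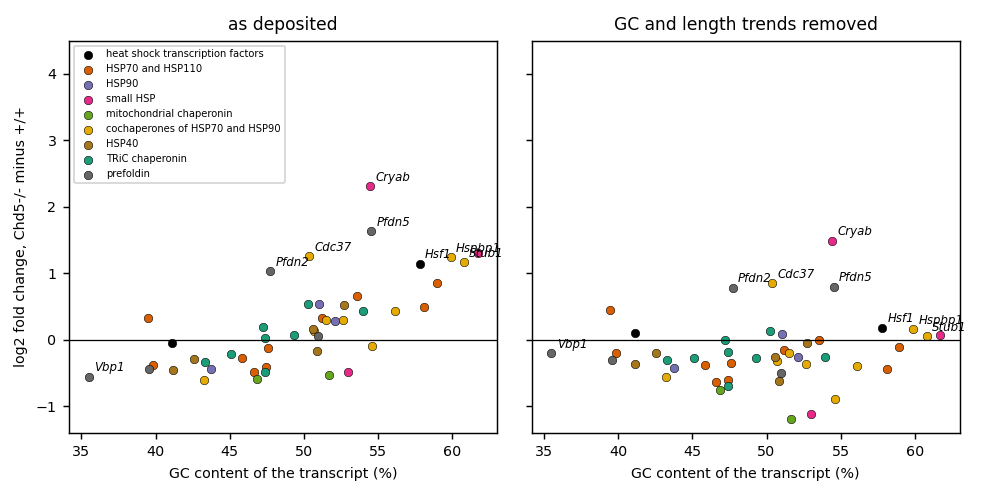
Log2 fold change, Chd5-/- minus +/+, against the GC content of the transcript for the 47 chaperone genes, coloured by class, as deposited (left) and with GC and length trends removed from each sample (right). The values climb with GC content on the left, and on the right Cryab, Cdc37, Pfdn5 and Pfdn2 remain near or above 0.8.

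Further chaperone genes of the same compartments were counted in the same way. Of 49 other cytosolic and nuclear chaperone genes, 48 were listed and 40 tested, of which 8 were higher (20%, against 21.9% of all rows) and 0 lower (against 2.27%) at an unadjusted p-value under 0.05, with a median log2 fold change of 0.23 as deposited and -0.14 after median-of-ratios scaling. Fkbp8, an HSP90-binding immunophilin of the mitochondrial surface, had the largest log2 fold change. It was measured at 9.03 and 6.37 TPM in +/+ NSCs, compared with 22.70 and 32.35 TPM in Chd5-/- NSCs. The log2 fold change was 1.71 as deposited and 0.52 with the GC and length trends removed. Hspb6, a small heat shock protein, was measured at 19.69 and 21.42 TPM in the +/+ samples, at 106.87 TPM in Chd5-/- replicate 1 and at 26.38 TPM in replicate 2, so that it shared the order of the Chd5-/- samples with Cryab. At the other end were Hspa12a, with 3.02 and 2.52 TPM against 1.16 and 1.35 TPM, and Ppid, an HSP90-binding cyclophilin, with 137.48 and 146.82 TPM against 115.83 and 69.02 TPM. Chd5-/- replicate 1 was above replicate 2 for 25 of these 40 tested genes (62.5%, against 49.8% of all rows). By at least 1 in log2(TPM + 1) it was higher for 3 (7.5%, against 8.87% of all rows).

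All 19 other mitochondrial chaperone and protease genes were tested, of which 6 were higher (31.6%, against 21.9% of all rows) and 1 was lower (5.26%, against 2.27%) at an unadjusted p-value under 0.05, with a median log2 fold change of 0.33 as deposited and -0.03 after median-of-ratios scaling. Lonp1 and Htra2, proteases of the matrix and the intermembrane space, had the largest log2 fold changes. Lonp1 was measured at 17.31 and 11.96 TPM in +/+ NSCs, compared with 62.07 and 36.66 TPM in Chd5-/- NSCs. Htra2 was measured at 12.92 and 10.17 TPM against 30.68 and 25.14 TPM. The log2 fold changes of 1.66 for Lonp1 and 1.21 for Htra2 became 0.77 and 0.27 with the GC and length trends removed. Dnajc15 and Dnajc19, HSP40-type proteins of the protein import motor, had the most negative log2 fold changes. Dnajc15 had 84.52 and 86.54 TPM against 60.22 and 33.45 TPM, and Dnajc19 had 106.82 and 113.58 TPM against 83.20 and 62.61 TPM. Chd5-/- replicate 1 was above replicate 2 for 18 of the 19 genes (94.7%, against 49.8% of all rows).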

How the data were processed

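RNA was sequenced from 4 NSC cultures, 2 per genotype, in stranded libraries of polyadenylated RNA. The authors deposited TPM values with 2 decimals in 1 table of 18169 rows, made according to the submitters' processing notes with Bowtie2 2.2.3, RSEM 1.2.20 and mm10. The gene annotation and strand setting are not given in the sources used here. The column sums were between 1000015 and 1000031 TPM. TPM keeps no read counts, so sequencing depth is unknown and counting error cannot be given.

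The deposited TPM were taken to log2(TPM + 1). The 12576 rows whose mean reached 1 TPM entered a two-sided test with limma 3.58.1 (R 4.3.3, lmFit, eBayes with a trend), with Benjamini-Hochberg adjustment over all of them. With 2 samples per genotype, p-values rest on the spread between single cultures. On this scale the differences of genes with low TPM come out too small. The test the authors used is not given in the sources used here. GENCODE M21 (GRCm38) gave the GC content and length of 93.0% of these rows. Trends were removed by subtracting, in each sample, a loess fit (span 0.5) of its deviation from the mean of the row on both properties. Coordinates are those of GENCODE M21, and promoter windows are those of RefSeq GRCm38.p6. Protein sequences were not used here.

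The members and lists were chosen with earlier results of these data known. TPM in all samples was given for the heat shock factors, Hspa1a, Hspa1b, every member with an unadjusted p-value under 0.05, and in each class the member of highest mean TPM and those at both ends of the fold changes. From each other list of chaperone genes, at most 2 genes at each end were named, apart from Pfdn6 and Hspa5. The cell type markers and stress genes named here were not all chosen by this rule. Hspa9, Hspa13, Hsph1, Hspb1, Bag2, Ahsa1, Stip1, Pfdn4, Pfdn6, Hmox1 and Atf3 were given in full after their values were seen. Results were recomputed with pseudocounts of 0.1 and 5, without a minimum and with 10 TPM as the minimum, after scaling by median-of-ratios or by quantiles, after removal of GC and length trends, with eBayes without a trend, with the replicate number as a block, and without each sample. The code was tested on simulated data. Python 3.11.15, pandas 2.3.3, numpy 2.4.6 and matplotlib 3.10.9 were used.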

Additional observations from a re-analysis of the deposited data

How the results depend on the processing

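With 2 samples per genotype and no record of depth, single values could not be given a counting error, and the calls depended on the processing. No chaperone gene had an adjusted p-value under 0.05 as deposited or under any alternative that kept all 4 samples (limma). This became 5 genes without Chd5-/- replicate 1 and 5 without Chd5-/- replicate 2, a range of 0 to 5 when each sample was left out. The rows of the whole table under this threshold numbered 7 as deposited, 4 with a pseudocount of 0.1, 0 with no minimum TPM, 3 with GC and length trends removed and 1 after quantile normalization. Leaving out each sample gave 0 to 1247 rows, with 0 without either +/+ sample, 1247 without Chd5-/- replicate 1 and 1086 without Chd5-/- replicate 2. The genotype left with 1 sample is then assumed to vary like the other.

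Chaperone genes higher at an unadjusted p-value under 0.05 numbered 7 as deposited, 4 after quantile normalization, 3 with the GC and length trends removed, and 2 to 16 when each sample was left out, with 4 without +/+ replicate 1, 2 without +/+ replicate 2 and 16 without Chd5-/- replicate 2. Those that were lower numbered 1 as deposited (2.13%, against 2.27%), 0 with a minimum of 10 TPM and 2 after quantile normalization. They numbered 8 after median-of-ratios scaling (17.0%, against 10.4%), 5 with the trends removed, and 0 with eBayes without a trend. The genes with both Chd5-/- samples above both +/+ samples numbered 15 as deposited (31.9%, against 46.3% of all rows). After median-of-ratios scaling they numbered 8, and with the trends removed 6. When each sample was left out they numbered 15 to 34, where fewer samples have to lie apart. Those below numbered 10 as deposited, 22 after median-of-ratios scaling, 20 with the trends removed, and 10 to 27 when each sample was left out. Where a count here has no share of all rows beside it, that share is not given. Such counts are not read as particular to the chaperone genes. The median log2 fold change of the 47 genes was 0.14 for the values as deposited, -0.21 after median-of-ratios scaling, -0.26 with the trends removed, and -0.25 to 0.39 when each sample was left out.

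The replicate numbers do not come from a shared litter or day in the labels, and the deviations of same-numbered samples had a correlation of -0.15, so they are not taken to pair the samples. With the replicate block, 0 rows of the table passed the adjusted threshold, and 7 chaperone genes were higher and 0 lower at an unadjusted p-value under 0.05. With the replicate block and the trends removed together, 0 rows passed, and 2 chaperone genes were higher and 3 lower. A crossed pairing, added after seeing the data, gave 5 rows, with 7 chaperone genes higher and 0 lower. Shares of all rows at the unadjusted threshold are not given for these blocks, so the counts are not read as particular to the chaperone genes. None of the 47 genes with an unadjusted p-value under 0.05 as deposited (limma) turned its sign under any alternative. Pfdn6, which passed this threshold on another list, did turn. Its log2 fold change was 0.68 as deposited and -0.15 with the GC and length trends removed. The cause of these changes was not tested.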

Other observations

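Chaperones of the endoplasmic reticulum (ER), which fold secreted and membrane proteins, were also measured. Of 20 genes, all of them tested with limma, 5 were higher (25%, against 21.9% of all rows) and 0 lower (against 2.27%) in Chd5-/- NSCs at an unadjusted p-value under 0.05, and none had an adjusted p-value under 0.05. The median log2 fold change was 0.09 as deposited and -0.27 after median-of-ratios scaling. Sil1, a nucleotide exchange factor of BiP, was measured at 16.99 and 16.52 TPM in +/+ NSCs, compared with 41.68 and 41.85 TPM in Chd5-/- NSCs. The samples of each genotype lay close together, and the log2 fold change was 1.27 with a standard error of 0.22. With the GC and length trends removed it was 0.44. Sdf2l1, an ER-resident partner of HSP40 proteins, was measured at 4.05 and 2.54 TPM against 10.82 and 7.35 TPM. Its log2 fold change of 1.23 became 0.27 once these trends were removed. At the other end were Dnajb9, with 109.88 and 132.35 TPM against 87.63 and 72.64 TPM, and Pdia3, a disulfide isomerase of glycoproteins, with 563.98 and 748.82 TPM against 686.25 and 355.59 TPM, which overlapped.

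Chd5-/- replicate 1 was above replicate 2 for 14 of the 20 ER genes (70%, against 49.8% of all rows), by a median of 0.47 in log2(TPM + 1). Hspa5, which encodes BiP and was named after its values were seen, was measured at 445.28 and 522.18 TPM in the +/+ samples, at 649.08 TPM in Chd5-/- replicate 1 and at 228.50 TPM in Chd5-/- replicate 2. Of 11 immediate early and acute stress genes, 10 were tested, and 2 were higher at an unadjusted p-value under 0.05 (20%, against 21.9% of all rows). Fos, also named after its values were seen, showed the opposite order to the inducible HSP70 genes, with 38.39 TPM in Chd5-/- replicate 1 and 121.17 TPM in Chd5-/- replicate 2, against 67.98 and 63.32 TPM in the +/+ samples.

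Summed over the 10 oligodendrocyte lineage markers, of which 9 are listed, Chd5-/- replicates 1 and 2 had 552 and 1224 TPM, and the +/+ samples had 607 and 683 TPM. Map2 was measured at 366 and 785 TPM in the Chd5-/- samples and at 503 and 516 TPM in the +/+ samples, and Gap43 at 148 and 121 TPM in the Chd5-/- samples and at 47.7 and 28.0 TPM in the +/+ samples. Both were named after their values were seen. The 8 mitochondrially encoded transcripts that were looked for are not analysed here.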
